A study of Mus musculus with 10 samples.

Results

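A set of 54 genes was expressed in all 4 lines derived from the mouse osteosarcoma cell line K7M2 and was lower in K7M2 itself. Members were chosen from raw counts divided by the library total, given as CPM, and averaged over the libraries of a line. Each had at least 5 CPM in every derived line and, with 0.5 CPM added to both means, at least 4 times the K7M2 level in every derived line. Of the 41743 gene names measured, 9589 reached 5 CPM in each derived line, and the 54 members are drawn from these. Because the comparison with K7M2 chose the members, their values against K7M2 are given as a description with no test. Tests were run only between derived lines, whose differences the choice did not use, although it holds every derived level above the 2 cuts.

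K7M2 is a mouse osteosarcoma line, and its poly-A RNA was sequenced in 2 libraries here, as was that of each derived line. In the derived lines the ezrin gene had been disrupted with CRISPR/Cas9 (Ezrin -/-), after which cells were stably transfected with 1 of 4 vectors. The lines carried an empty vector (labelled mock transfected Ezrin -/-, col3E), wild-type ezrin cDNA (Ezrin-WT, col3WT), ezrin T567A (col3A) or ezrin T567D (col3D), and no line was treated. Each construct was present in 1 stable line, and all 4 derived lines share the disruption, the transfection and the tag col3, read here as 1 disrupted clone. Disruption, clonal derivation and transfection therefore cannot be told apart in any value against K7M2. Nothing in the labels says whether a line's 2 libraries are from different cultures, and the p-values cover only library spread, which may be technical.

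Ezrin ties actin filaments to membrane proteins, and this link is made by its open form, favoured when threonine T567 is phosphorylated. T567A cannot be phosphorylated there and T567D mimics the phosphorylated residue. Osteosarcoma cells resemble bone-forming cells, in which secreted signals such as BMP and Wnt proteins, matrix proteins and matrix-degrading proteases carry much of the cells' exchange with their surroundings. The members hold genes of each of these kinds.

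Total counts per library lay between 14679424 and 18230763, so that 3 counts, used as the floor, stood for 0.165 to 0.204 CPM. Mitochondrially encoded genes took 1.90% and 1.44% of counts in T567A and 0.844% to 1.33% in the other libraries, and the part of this in differences that involve T567A was not tested. Ezr itself was at 159 and 162 CPM in K7M2, 72.5 and 73.1 CPM with empty vector, 235 and 238 CPM with wild-type ezrin, 244 and 249 CPM with T567A, and 207 and 185 CPM with T567D. Of 13 osteoblast markers 8 reached 1 CPM in parental cells, among them Runx2, while Sp7, Bglap, Ibsp and Dmp1 were at or near 0. The osteoblast markers summed to 7019 to 7133 CPM in parental and 4504 to 5657 CPM in derived libraries, and their part in the members' values was not tested. The myeloid sum rested on Csf1r (mean 1148 CPM in parental, 1367 to 1597 CPM in derived lines), and Ptprc, Adgre1, Fcgr3 and Tyrobp were at or near 0. The epithelial and muscle markers each summed to under 1 CPM in every library, the endothelial ones to at most 3.10 CPM and the neural ones to 1.64 to 3.81 CPM. Of 6 chondrocyte markers only Sox9 reached 1 CPM in any line, and Acan and Col9a1 were at 0 in every library. The chondrocyte sum was 0.564 to 0.569 CPM in parental libraries, 1.51 to 2.26 CPM with empty vector, 4.31 to 4.69 CPM with wild type, 1.86 to 2.52 CPM with T567A and 3.34 to 3.63 CPM with T567D, so that every derived library lay above the parental ones. Of 6 adipocyte markers only Fabp4 reached 1 CPM, and Adipoq and Plin1 were at 0 in every library. The adipocyte sum was 1.07 to 1.37 CPM in parental libraries, 1.98 to 2.15 CPM with empty vector, 3.26 to 3.50 CPM with wild type, 0.768 to 1.43 CPM with T567A and 6.49 to 7.90 CPM with T567D. The part of the chondrocyte and adipocyte markers in the members' values was not tested. No marker was a member. In bulk RNA, fewer cells with a transcript and less of it per cell cannot be told apart.

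The 54 members took 0.0153% and 0.0161% of all counts in K7M2, 0.118% and 0.121% with empty vector, 0.142% and 0.144% with wild-type ezrin, 0.158% and 0.148% with T567A, and 0.143% and 0.138% with T567D. Their parental means ran from 0.0854 to 39.4 CPM with a median of 1.15, with 26 under 1 CPM and 5 at 5 CPM or more. The median ratio to K7M2 was 7.25 for empty vector, 9.93 for wild type, 9.07 for T567A and 8.96 for T567D, each with 0.5 CPM added, which understates the ratio of genes scarce in K7M2. By the lowest of its 4 ratios, a member lay at 5 or more in 42 cases, at 8 or more in 22 and at 10 or more in 11. Just inside the cut were Ak3 (lowest ratio 4.07, in T567D), Spon2 (4.25, in T567A) and Acvrl1 (4.27, in empty vector). Just outside were Mmp3 (3.98, in wild type), Ggt1 (3.90, in empty vector) and Cdyl (3.87, in T567D).

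Passing the cuts in only some of the lines was common. There were 78 genes that passed for empty vector, 92 for wild type, 125 for T567A and 95 for T567D, of which the members made up 69.2%, 58.7%, 43.2% and 56.8%. Another 24 genes passed in 3 lines, and of these 11 failed in empty vector, 9 in T567A, 4 in wild type and 0 in T567D. Read in the other direction, 49 genes at 5 CPM or more in K7M2 were at least 4-fold lower in every derived line.

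**Figure D1:**
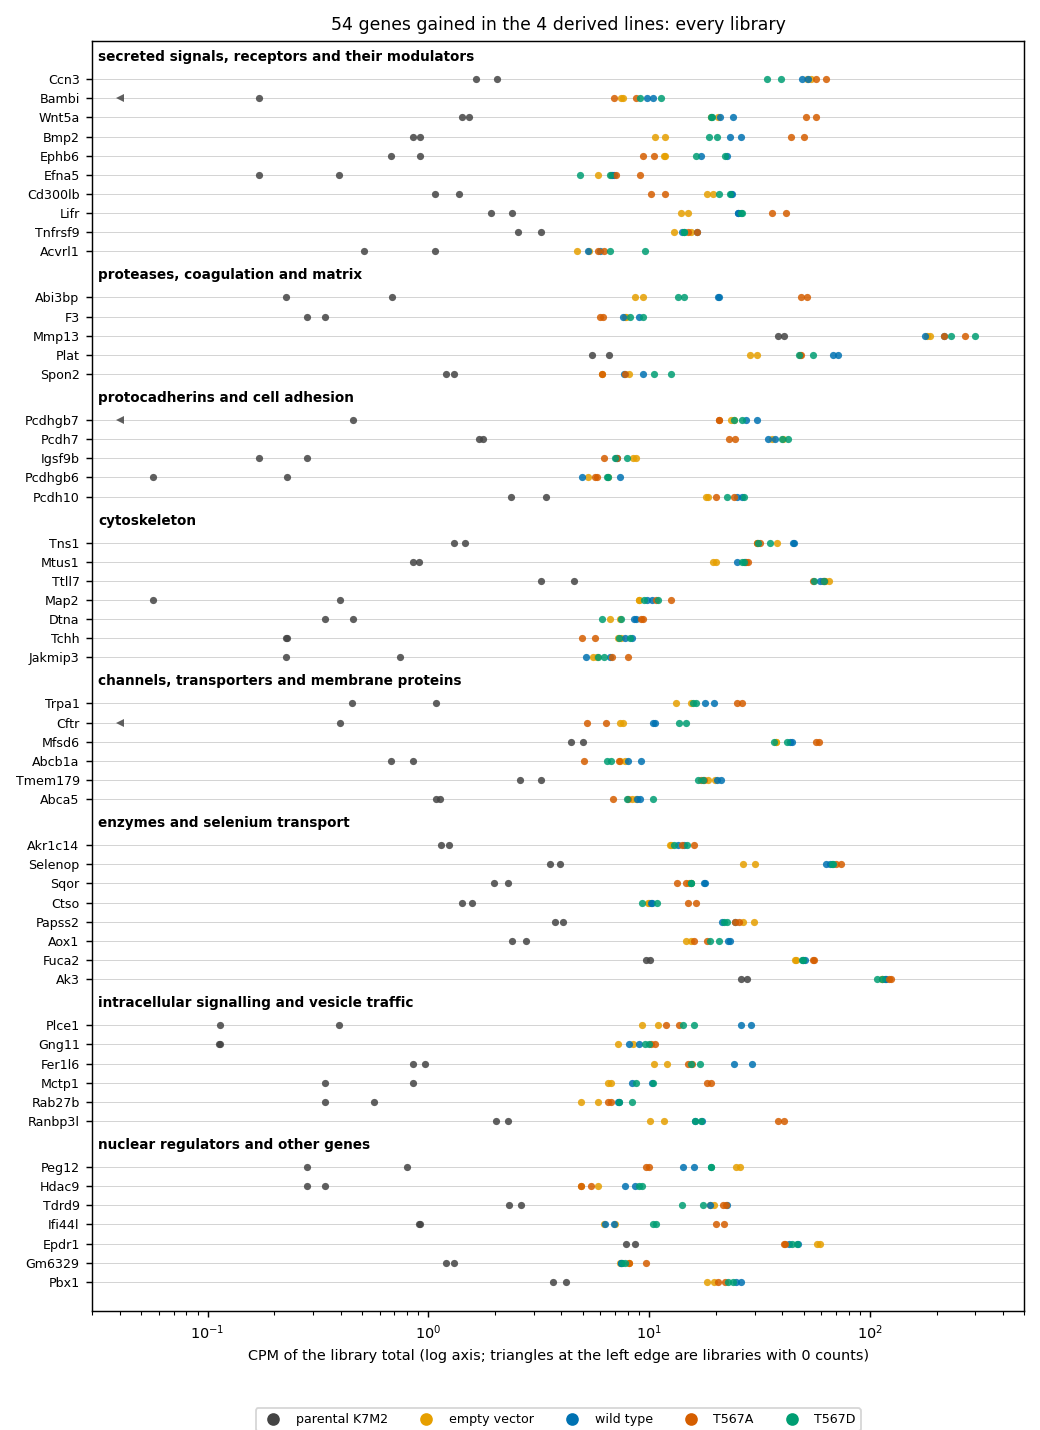
Level of each of the 54 members in every library, in CPM on a log axis, grouped by the role of the gene, with each line in its own colour and triangles for libraries with 0 counts. The parental points lie to the left of all derived points in every row. The choice of members fixes this order for the line means and makes it likely for single libraries. The derived lines lie furthest apart for Abi3bp (5.59-fold between the highest and lowest line mean).

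Among the derived lines, 38 of the 54 members differed in a joint test of the 4 lines, which is 70.4% of members, where 54.2% of all 12595 tested genes did (edgeR's quasi-likelihood test, Benjamini-Hochberg adjusted over all tested genes, threshold 0.05). The highest and lowest line means lay within 1.5-fold for 29 members, at least 2-fold apart for 15 and at least 3-fold apart for 4. The median of this span was 1.44-fold, against 1.24-fold over the 9589 genes at 5 CPM in each derived line. The line with the lowest mean was empty vector for 27 members, T567A for 18, T567D for 8 and wild type for 1. The line with the highest mean was T567A for 24 members, wild type for 14, T567D for 11 and empty vector for 5. For 14 members no pairwise comparison passed, and Abi3bp alone passed in all 4.

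In the wild-type line compared with the empty-vector line, 21 members were called, 18 of them higher and 3 lower. Of all tested genes 15.6% were called, 8.25% higher and 7.36% lower. The median log2 fold change of the members was 0.16, against -0.01 over all tested genes. T567A against wild type called 30 members, 14 higher and 16 lower. Of all tested genes 39.6% were called, 20.4% higher and 19.1% lower. The members' shares were 25.9% and 29.6%, and their median was 0.05 against -0.00. T567D against wild type called 7 members where 1.34% of all tested genes were called, with 1 member higher (0.818% of all) and 6 lower (0.524% of all). T567A against T567D called 25 members where 44.1% of all tested genes were called, 16 higher (22.5% of all) and 9 lower (21.6% of all), with a median of 0.00 for the members and for all tested genes. These comparisons share lines, so their counts are not independent of each other. Each construct is in 1 stable line, so construct and line cannot be told apart in any of them. Of the calls given below, several were lost by limma on log2(RPKM + 0.1). In T567D minus wild type these were all 6 lower calls, those of Abi3bp, Ccn3, Fer1l6, Plat, Plce1 and Tns1. The others were wild type minus empty vector for Mtus1, Pcdh10, Peg12 and Tns1, T567A minus wild type for Pcdhgb7, Peg12 and Trpa1, and T567A minus T567D for Efna5. By DESeq2 the calls of Papss2 against empty vector, of Efna5 and F3 between T567A and T567D, and of Ifi44l in T567D were lost.

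**Figure D2:**
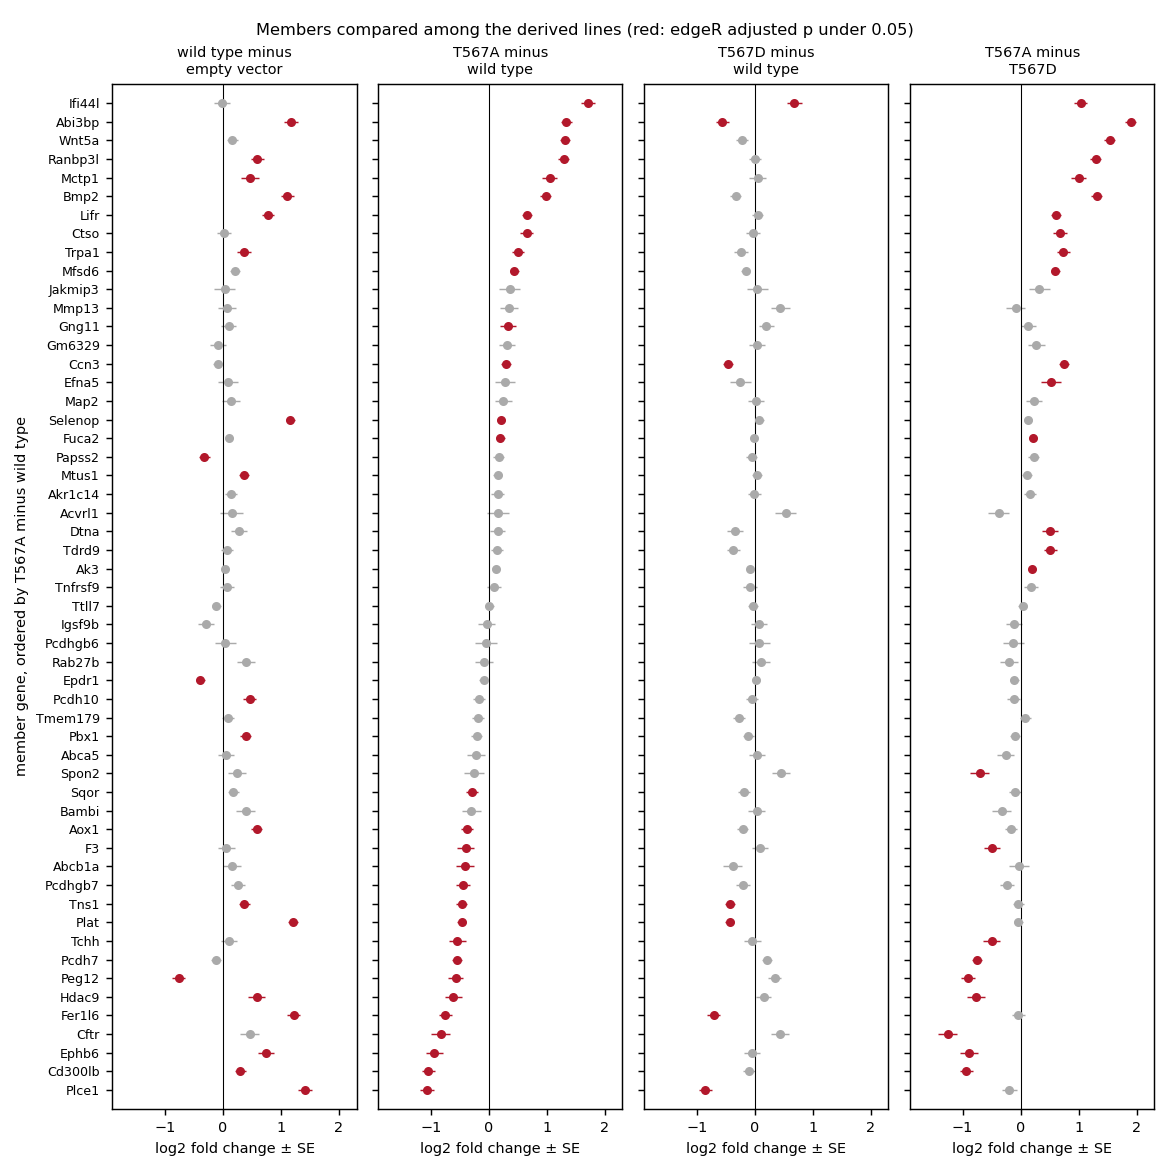
Log2 fold change ± SE of each member in the 4 comparisons between derived lines (edgeR, 2 libraries per line), with members ordered by T567A minus wild type and red points for adjusted p under 0.05. Most red points in the panel of wild type against empty vector lie right of 0 (18 of 21), while the panel of T567D against wild type has 7 red points, 6 of them left of 0.

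Secreted signals, receptors and their modulators made up 10 members, 7 of which differed among the derived lines (54.2% of all tested genes did). The role groups were formed with the members' values known, and no group was tested as such. Bmp2, a bone morphogenetic protein that drives osteoblast differentiation (chromosome 2, 133552159 to 133562885, plus strand), was at 0.847 and 0.911 CPM in K7M2, 10.6 and 11.8 CPM with empty vector, 23.1 and 26.1 CPM with wild-type ezrin, 50.0 and 43.9 CPM with T567A, and 20.3 and 18.7 CPM with T567D. No 2 of the empty-vector, wild-type and T567A lines overlapped, and T567A was the highest. Bmp2 rose in wild type against empty vector (log2 fold change 1.11 ± 0.11 SE, adjusted p = 4.3e-07) and again in T567A against wild type (0.98 ± 0.092, adjusted p = 3.4e-08). T567D minus wild type was -0.33 ± 0.10, which did not pass (adjusted p = 0.13).

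Wnt5a, a ligand of the noncanonical Wnt pathway (chromosome 14, 28504750 to 28527448, plus strand), was at 1.52 and 1.42 CPM in K7M2, 19.1 and 20.4 CPM with empty vector, 21.0 and 23.9 CPM with wild-type ezrin, 56.7 and 51.2 CPM with T567A, and 19.1 and 19.3 CPM with T567D. Both T567A libraries lay above every other derived library. The log2 fold change was 1.31 ± 0.087 against wild type (adjusted p = 1.5e-10) and 1.53 ± 0.089 against T567D (adjusted p = 1.4e-11), while wild type minus empty vector was 0.16 ± 0.096 (adjusted p = 0.29). Of 37 Wnt and BMP signalling genes listed, 16 were tested. In T567A against wild type 6 of the 16 rose and 3 fell (median 0.27), where 20.4% of all tested genes rose and 19.1% fell. In wild type against empty vector 1 rose and 2 fell (median -0.18), where 8.25% of all rose and 7.36% fell. The 6 include Bmp2 and Wnt5a, and the 1 is Bmp2. Of the 8 list genes with at least 5 CPM in any line, only Bmp2 and Wnt5a belonged to the 54. The median log2 ratio of the 8 to K7M2 was 0.09, with 3 at least 2-fold higher in all derived lines and 0 at least 2-fold lower. Bmp4 was at a mean of 240 CPM in K7M2 and 113 to 168 CPM in derived lines.

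Ccn3, a matricellular protein of the CCN family (chromosome 15, 54745702 to 54754039, plus strand), was at 1.64 and 2.05 CPM in K7M2, 51.6 and 53.9 CPM with empty vector, 49.1 and 52.6 CPM with wild-type ezrin, 56.8 and 63.0 CPM with T567A, and 39.6 and 34.2 CPM with T567D. T567A held the highest and T567D the lowest derived levels, without overlap. T567A exceeded T567D by 0.74 ± 0.085 (adjusted p = 5.1e-07). T567D minus wild type was -0.46 ± 0.086 (adjusted p = 0.0065), a call lost without replicate 3 of wild type (0.14) or of T567D (0.13). Among the other CCN genes, Ccn1 was at a mean of 927 CPM in K7M2 and 934 to 1281 CPM in derived lines, and Ccn2 at 189 CPM against 111 to 213 CPM.

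Bambi, a membrane pseudoreceptor that dampens TGF-beta and BMP signals (chromosome 18, 3507923 to 3516404, plus strand), was at 0 and 0.171 CPM in K7M2, 7.64 and 7.43 CPM with empty vector, 10.4 and 9.73 CPM with wild-type ezrin, 6.95 and 8.72 CPM with T567A, and 11.3 and 9.11 CPM with T567D. The 2 parental libraries held 3 counts together, all in replicate 3. Against these 3 counts the ratio was 88.6 for empty vector (95% exact interval 30.0 to 433), 118 for wild type (40.1 to 576), 93.3 for T567A (31.6 to 455) and 120 for T567D (40.8 to 586), intervals that cover counting error only. Acvrl1, a type I receptor of the BMP family, lay at mean levels of 0.792 CPM in K7M2 and 5.02 to 8.14 CPM in derived lines. None of the 4 pairwise differences passed for either gene.

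Ephb6 and Cd300lb were lowest in T567A, where Bmp2 and Wnt5a were highest. Ephb6, an Eph receptor without kinase activity, was at 0.677 and 0.911 CPM in K7M2, 11.8 and 11.6 CPM with empty vector, 22.6 and 17.2 CPM with wild-type ezrin, 9.33 and 10.5 CPM with T567A, and 16.2 and 22.0 CPM with T567D. It was lower in T567A than in wild type (-0.94 ± 0.15, adjusted p = 6.9e-05) and higher in wild type than in empty vector (0.74 ± 0.14, adjusted p = 0.0019). Cd300lb, an activating receptor described in myeloid cells, was at 1.07 and 1.37 CPM in K7M2, 19.4 and 18.3 CPM with empty vector, 23.4 and 23.8 CPM with wild-type ezrin, 10.2 and 11.8 CPM with T567A, and 20.6 and 23.1 CPM with T567D. Its T567A libraries lay below all other derived libraries, with -1.04 ± 0.11 against wild type (adjusted p = 1.5e-07) and -0.94 ± 0.11 against T567D (adjusted p = 6.3e-07). Efna5, an ephrin ligand of Eph receptors, was at 4.86 to 9.06 CPM in the derived libraries. Its T567A minus T567D difference of 0.52 ± 0.17 (adjusted p = 0.017) was lost without T567A replicate 2 (adjusted p = 0.17) or T567D replicate 1 (0.21). The remaining members of this group were Lifr, the receptor subunit for leukaemia inhibitory factor, and Tnfrsf9, a costimulatory receptor. Lifr, singled out after its values were seen, was at 13.9 and 14.9 CPM with empty vector, 25.2 CPM in each wild-type library, 41.5 and 35.9 CPM with T567A, and 26.0 and 26.2 CPM with T567D.

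Proteases, coagulation and matrix genes made up 5 members, 4 of which differed among the derived lines (54.2% of all tested genes did). Abi3bp, which encodes an extracellular matrix protein (chromosome 16, 56477878 to 56690135, plus strand), was at 0.226 and 0.683 CPM in K7M2, 8.60 and 9.35 CPM with empty vector, 20.7 and 20.5 CPM with wild-type ezrin, 51.6 and 48.7 CPM with T567A, and 13.5 and 14.4 CPM with T567D. The 4 derived lines stood in the order empty vector, T567D, wild type and T567A with no overlap between neighbours. Wild type exceeded empty vector by 1.17 ± 0.12 (adjusted p = 6.1e-07), and T567A exceeded wild type by 1.33 ± 0.095 (adjusted p = 4.5e-10). The difference of T567A from T567D was 1.89 ± 0.10 (adjusted p = 3.4e-12), which is the highest of any member. T567D minus wild type was -0.56 ± 0.11 (adjusted p = 0.0091), a call lost without wild-type replicate 1 or 3 (adjusted p = 0.093 for each) or T567D replicate 1 (0.12).

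Plat, which encodes tissue plasminogen activator (chromosome 8, 22757727 to 22782844, plus strand), was at 6.55 and 5.52 CPM in K7M2, 28.5 and 30.7 CPM with empty vector, 71.3 and 67.7 CPM with wild-type ezrin, 48.2 and 48.7 CPM with T567A, and 47.7 and 55.3 CPM with T567D. Wild type was above every other line, T567A and T567D overlapped, and empty vector was the lowest derived line. The differences were 1.21 ± 0.084 for wild type minus empty vector (adjusted p = 2.3e-09) and -0.47 ± 0.080 for T567A minus wild type (adjusted p = 8.4e-05). For T567D minus wild type the value was -0.43 ± 0.080 (adjusted p = 0.0059), lost without wild-type replicate 1 (adjusted p = 0.11) or T567D replicate 1 (0.15).

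Mmp13, the main collagenase of bone and cartilage (chromosome 9, 7272514 to 7283331, plus strand), had the highest level per length of any member. Its mean over the derived lines was 77.6 RPKM, the deposited value scaled by gene length and depth, against 13.8 RPKM in K7M2. Its libraries were at 40.6 and 38.2 CPM in K7M2, 187 and 182 CPM with empty vector, 178 and 216 CPM with wild-type ezrin, 270 and 217 CPM with T567A, and 300 and 232 CPM with T567D. The derived lines were not separated by any of the 4 comparisons, the T567D minus wild type difference being 0.44 ± 0.16 (adjusted p = 0.36). Of 20 matrix protease and inhibitor genes at 5 CPM or more in any line, Mmp13 and Plat met the cuts, 6 were at least 2-fold higher in all derived lines and 3 at least 2-fold lower. Over all 10276 genes at that level the numbers were 54, 240 and 208. Mmp2, a gelatinase gene, was at a mean of 115 CPM in K7M2 and at most 0.738 CPM in any derived line.

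A promoter window of 300 bases, from 250 before to 50 after a RefSeq transcript start, was found for 36 of the 54 members. A total of 4 are printed: Mmp13 because it is the most abundant member, F3 and Mctp1 because they share a string with it, and Selenop for another. F3, which encodes tissue factor, the trigger of coagulation, and Mctp1, a calcium-binding membrane protein, were chosen after their values were seen. The windows are Mmp13 (chr9:7272264-7272563, plus strand), F3 (chr3:121723287-121723586, plus strand), Mctp1 (chr13:76579347-76579646, plus strand) and Selenop (chr15:3270517-3270816, plus strand, 1 of 3 starts listed), all on GRCm38.p6. Each reads 5′ to 3′ along the gene, with matches to the AP1, TATA box, RUNX, GC box and ISRE strings given below in capitals. Matches to the other searched strings are left in small letters, such as that to the TCF string in Mctp1.
Mmp13: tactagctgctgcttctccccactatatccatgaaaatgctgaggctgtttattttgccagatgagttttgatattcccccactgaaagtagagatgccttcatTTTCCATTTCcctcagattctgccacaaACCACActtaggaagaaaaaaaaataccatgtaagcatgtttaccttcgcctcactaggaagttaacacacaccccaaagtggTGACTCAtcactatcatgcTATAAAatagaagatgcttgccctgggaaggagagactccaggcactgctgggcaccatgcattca
F3: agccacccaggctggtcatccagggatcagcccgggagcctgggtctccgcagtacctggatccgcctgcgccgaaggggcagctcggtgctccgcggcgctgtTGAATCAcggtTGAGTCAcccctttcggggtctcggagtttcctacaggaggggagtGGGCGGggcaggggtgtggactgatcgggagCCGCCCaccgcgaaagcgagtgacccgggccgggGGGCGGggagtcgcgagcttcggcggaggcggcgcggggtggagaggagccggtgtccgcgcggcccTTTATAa
Mctp1: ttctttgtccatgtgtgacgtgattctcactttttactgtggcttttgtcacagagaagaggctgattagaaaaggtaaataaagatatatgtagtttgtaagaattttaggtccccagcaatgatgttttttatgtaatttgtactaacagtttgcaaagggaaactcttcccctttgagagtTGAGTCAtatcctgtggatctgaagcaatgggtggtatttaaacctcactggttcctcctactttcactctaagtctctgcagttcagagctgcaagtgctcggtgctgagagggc
Selenop: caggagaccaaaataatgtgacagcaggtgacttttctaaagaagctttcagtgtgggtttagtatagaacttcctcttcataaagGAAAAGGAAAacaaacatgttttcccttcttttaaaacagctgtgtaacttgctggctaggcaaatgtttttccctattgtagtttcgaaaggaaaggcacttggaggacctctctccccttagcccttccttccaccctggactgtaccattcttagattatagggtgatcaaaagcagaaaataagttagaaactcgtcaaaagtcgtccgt
A total of 13 strings were searched on both strands, a choice made after the members' values were seen. The string for AP1 was TGANTCA and that for the CRE was TGACGTCA. The TATA box was read as TATAAA, the CCAAT box by its name and the GC box as GGGCGG. RUNX factors were represented by TGTGGT and TEAD factors by GGAATG. The E-box was read as CACGTG and the SMAD string as GTCTAGAC. For TCF factors the letters were TCAAAG, and for ETS factors they were CCGGAAGT. The MEF2 string was CTA and TAG with any 4 bases between, which can hold a TATA box, and the ISRE string was GAAA, any 2 bases and GAAA. The AP1 string stood in the windows of Aox1, F3, Mctp1 and Mmp13, 11.1% of the 36 members, where 7.93% of all 27025 genes with a window had it. In Mmp13 it began 35 bases before the start, as TGACTCA, in Mctp1 66 bases before as TGAGTCA, and F3 held TGAATCA and TGAGTCA. The annotated genes of Mctp1 and Selenop begin upstream of their windows, at 76384535 and 3268547, so both windows stand at internal starts. The ISRE string stood in 6 windows, those of Akr1c14, Ctso, Mmp13, Ranbp3l, Selenop and Sqor, 16.7% of members against 3.49% of all genes. The window of Ifi44l, an interferon-induced member described below, held no match to the ISRE string. The RUNX string was in 5.56% of members' windows against 16.9%, and the GC box in 44.4% against 35.9%. These matches describe letters in the windows, and the 27025 genes, unlike the members, were not limited to genes expressed in these lines.

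The libraries of F3 (chromosome 3, 121723537 to 121735048, plus strand) were at 0.282 and 0.341 CPM in K7M2, 7.87 and 7.78 CPM with empty vector, 9.02 and 7.58 CPM with wild-type ezrin, 5.99 and 6.14 CPM with T567A, and 8.20 and 9.35 CPM with T567D. T567A was the lowest derived line, without overlap with the others. T567A minus T567D was -0.49 ± 0.14 (adjusted p = 0.0091), a call lost without T567D replicate 3 (adjusted p = 0.092). Mctp1 (chromosome 13, 76384535 to 77031810, plus strand) was at 0.847 and 0.341 CPM in K7M2, 6.73 and 6.50 CPM with empty vector, 8.37 and 10.3 CPM with wild-type ezrin, 19.1 and 18.2 CPM with T567A, and 10.4 and 8.75 CPM with T567D. T567A was the highest, with 1.05 ± 0.13 against wild type (adjusted p = 2.7e-06).

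Protocadherins and other adhesion genes made up 5 members, 3 of which differed among the derived lines (54.2% of all tested genes did). Pcdh7, a protocadherin of the delta class (chromosome 5, 57717967 to 58133230, plus strand), was at 1.69 and 1.76 CPM in K7M2, 36.0 and 40.4 CPM with empty vector, 37.0 and 34.6 CPM with wild-type ezrin, 22.9 and 24.4 CPM with T567A, and 42.4 and 40.0 CPM with T567D. T567A was lower than wild type (-0.55 ± 0.088, adjusted p = 4.4e-05) and lower than T567D (-0.75 ± 0.087, adjusted p = 5.1e-07), without overlap. Pcdh10, a second delta protocadherin, was at 18.5 and 18.0 CPM in empty vector and 26.2 and 24.9 CPM in wild type. This difference of 0.46 ± 0.11 (adjusted p = 0.0071) was lost when wild-type replicate 1 was left out (0.075), and likewise for replicate 2 (0.052) or 3 (0.068) of empty vector. Among the 9 listed cadherins and protocadherins at 5 CPM or more in any line, Pcdh7 and Pcdh10 met the cuts. Pcdh1 lay at a mean of 46.8 CPM in K7M2 and 2.88 to 15.4 CPM in derived lines, and Cdh2 and Cdh11 differed from K7M2 by less than 2-fold.

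Pcdhgb6 and Pcdhgb7 belong to the protocadherin gamma cluster, in which a row of variable first exons is spliced to shared 3′ exons. Reads in the shared exons cannot be given to 1 gene, so the level of each gene of the cluster is uncertain. Pcdhgb7 (chromosome 18, 37751600 to 37841873, plus strand) was at 0 and 0.455 CPM in K7M2, 23.5 and 24.3 CPM with empty vector, 30.9 and 27.3 CPM with wild-type ezrin, 20.6 and 20.7 CPM with T567A, and 24.1 and 26.4 CPM with T567D. The parental libraries held 0 and 8 counts. Its ratios to K7M2, 29.1 to 40.6 over the 4 lines, were high throughout, no other member having a lowest ratio of 29.1 or more. T567A minus wild type was -0.44 ± 0.12 (adjusted p = 0.0075), lost without wild-type replicate 1 (adjusted p = 0.098). Pcdhgb6 (chromosome 18, 37742094 to 37841873, plus strand) was at 0.0564 and 0.228 CPM in parental libraries and 4.95 to 7.36 CPM in derived ones, with no pairwise call.

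Of 22 gamma cluster genes in the tables, 5 were at 1 CPM or more in K7M2 and 8 in all derived lines. Not every gene of the cluster was higher. Pcdhga6 was at 23.1 and 21.8 CPM in parental libraries and 8.07 to 10.5 CPM in derived ones, and Pcdhga1 at 1.41 and 1.31 CPM against 0.0549 to 0.583 CPM. Pcdhgc3, the most counted gene of the cluster, was at a mean of 312 CPM in K7M2 and 340 to 506 CPM in derived lines. Pcdhga11 had 0 counts in both parental libraries and 1.28 to 2.25 CPM in derived ones. Genes of the cluster thus lay on both sides of their K7M2 level.

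**Figure D3:**
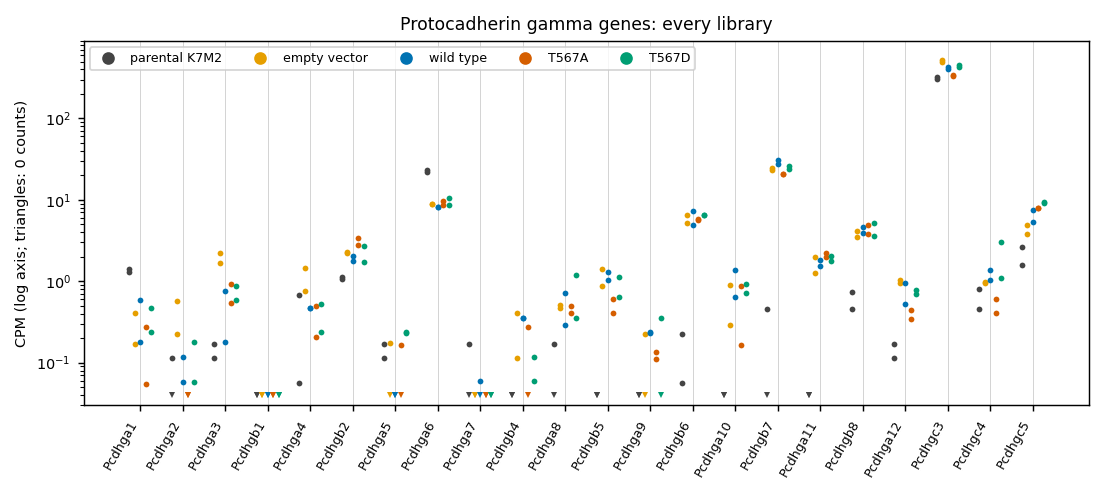
CPM (log axis) of the 22 protocadherin gamma genes in every library, in genomic order, with triangles for 0 counts and lines in colour. Pcdhgb7 lies at 20.6 to 30.9 CPM in derived libraries and at most 0.455 CPM in parental ones, while Pcdhga6 is higher in the parental libraries (23.1 and 21.8 CPM).

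Cytoskeletal genes made up 7 members, 4 of which differed among the derived lines (54.2% of all tested genes did). Tns1, which encodes tensin 1, an actin-binding protein of integrin adhesions (chromosome 1, 73910231 to 74124449, minus strand), was at 1.47 and 1.31 CPM in K7M2, 30.7 and 37.8 CPM with empty vector, 45.0 and 44.9 CPM with wild-type ezrin, 31.8 and 30.8 CPM with T567A, and 31.1 and 35.3 CPM with T567D. Both wild-type libraries lay above every other library, and the other derived lines overlapped. T567A minus wild type was -0.47 ± 0.092 (adjusted p = 0.00035). T567D minus wild type was -0.43 ± 0.091 (adjusted p = 0.016), lost without wild-type replicate 1 (adjusted p = 0.13), wild-type replicate 3 (0.15) or T567D replicate 1 (0.24). Wild type minus empty vector was 0.37 ± 0.091 (adjusted p = 0.0082), lost without empty-vector replicate 2 (0.21), wild-type replicate 1 (0.061) or wild-type replicate 3 (0.054).

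Ttll7, a tubulin polyglutamylase (chromosome 3, 146852367 to 146984009, plus strand), was at 3.22 and 4.55 CPM in K7M2, 62.6 and 65.1 CPM with empty vector, 59.6 and 61.1 CPM with wild-type ezrin, 62.1 and 55.3 CPM with T567A, and 61.9 and 55.9 CPM with T567D. Its derived line means lay within 1.09-fold of each other, the closest of any named member, and its joint test did not pass (adjusted p = 0.46). Map2, a microtubule-associated protein typical of neurons, was at 0.0564 and 0.398 CPM in parental and 9.00 to 12.5 CPM in derived libraries, and no comparison between derived lines passed. Mtus1, a microtubule-associated protein, was at 19.5 and 20.0 CPM in empty vector and 24.9 to 28.1 CPM in the 3 ezrin lines. Wild type minus empty vector was 0.37 ± 0.088 for Mtus1 (adjusted p = 0.0063), lost without empty-vector replicate 2 (0.070) or wild-type replicate 1 (0.10). Dtna, Tchh and Jakmip3 completed this group.

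Channels, transporters and membrane proteins made up 6 members, 3 of which differed among the derived lines (54.2% of all tested genes did). Cftr, a chloride channel (chromosome 6, 18170687 to 18322768, plus strand), was at 0 and 0.398 CPM in K7M2, 7.64 and 7.37 CPM with empty vector, 10.4 and 10.6 CPM with wild-type ezrin, 6.34 and 5.21 CPM with T567A, and 13.6 and 14.7 CPM with T567D. T567D was the highest and T567A the lowest derived line, without overlap. T567A minus wild type was -0.83 ± 0.17 (adjusted p = 0.00073) and T567A minus T567D was -1.26 ± 0.17 (adjusted p = 3.8e-06), the lowest of any member, while T567D minus wild type was 0.43 ± 0.15 (adjusted p = 0.22). Trpa1, a cation channel opened by irritants (chromosome 1, 14872648 to 14918862, minus strand), was at 0.452 and 1.08 CPM in K7M2, 13.2 and 15.4 CPM with empty vector, 17.9 and 19.6 CPM with wild-type ezrin, 26.3 and 25.0 CPM with T567A, and 16.2 and 15.8 CPM with T567D. T567A was here the highest line. T567A exceeded wild type by 0.50 ± 0.11 (adjusted p = 0.0010) and T567D by 0.73 ± 0.11 (adjusted p = 2.2e-05). Tmem179 was at 16.6 to 21.1 CPM in derived libraries with no pairwise call, and Mfsd6, Abca5 and Abcb1a were the other members of the group.

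Enzymes and the selenium carrier gene made up 8 members, 5 of which differed among the derived lines (54.2% of all tested genes did). Selenop, which encodes the plasma protein that carries selenium between tissues (chromosome 15, 3268547 to 3280508, plus strand), was at 3.56 and 3.93 CPM in K7M2, 26.5 and 30.2 CPM with empty vector, 65.5 and 63.2 CPM with wild-type ezrin, 73.9 and 70.3 CPM with T567A, and 67.8 and 67.5 CPM with T567D. All 3 ezrin lines lay above empty vector, and wild type minus empty vector was 1.16 ± 0.078 (adjusted p = 1.6e-09). T567D minus wild type was 0.08 ± 0.072, which did not pass (adjusted p = 0.77). Aox1, aldehyde oxidase, was at 14.7 and 15.4 CPM in empty vector and 23.2 and 22.7 CPM in wild type (0.58 ± 0.10, adjusted p = 0.00043).

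The derived line means lay within 1.27-fold for Papss2, 1.21-fold for Fuca2 and 1.11-fold for Ak3. Papss2, which makes the sulfate donor used on cartilage proteoglycans, was at 26.6 and 29.7 CPM in empty vector and 21.4 and 24.5 CPM in wild type. The difference of -0.32 ± 0.093 (adjusted p = 0.023) was lost without wild-type replicate 1 (adjusted p = 0.27) or empty-vector replicate 3 (0.23). Fuca2, a secreted fucosidase, was at 9.65 and 10.1 CPM in parental and 45.6 to 55.8 CPM in derived libraries. Ak3, a mitochondrial adenylate kinase and the member nearest the cut, was at 25.9 and 27.8 CPM in parental and 108 to 124 CPM in derived libraries.

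Intracellular signalling and vesicle traffic genes made up 6 members, all 6 of which differed among the derived lines (54.2% of all tested genes did). Plce1, phospholipase C epsilon, an effector of Ras-family GTPases (chromosome 19, 38481109 to 38785030, plus strand), was at 0.395 and 0.114 CPM in K7M2, 9.28 and 11.0 CPM with empty vector, 28.8 and 26.0 CPM with wild-type ezrin, 13.6 and 11.9 CPM with T567A, and 16.0 and 14.2 CPM with T567D. Wild type stood above every other line without overlap. Wild type minus empty vector was 1.41 ± 0.12 (adjusted p = 7.3e-08), T567A minus wild type -1.06 ± 0.12 (adjusted p = 4.1e-07) and T567D minus wild type -0.85 ± 0.11 (adjusted p = 0.00026). Fer1l6, a member of the ferlin family of membrane proteins (chromosome 15, 58510048 to 58665092, plus strand), was at 0.960 and 0.854 CPM in K7M2, 10.5 and 12.0 CPM with empty vector, 29.2 and 24.2 CPM with wild-type ezrin, 15.0 and 15.6 CPM with T567A, and 17.0 and 15.5 CPM with T567D. The order was that of Plce1, with 1.22 ± 0.11 for wild type minus empty vector (adjusted p = 1.9e-07) and -0.71 ± 0.11 for T567D minus wild type (adjusted p = 0.00087). Plce1 and Fer1l6 were the only members whose T567D minus wild type call held without each library in turn, but both calls were lost by limma on log2(RPKM + 0.1) (adjusted p = 0.068 for Plce1 and 0.058 for Fer1l6).

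Ranbp3l, a Ran-binding protein (chromosome 15, 8967949 to 9067335, plus strand), was at 2.03 and 2.28 CPM in K7M2, 10.1 and 11.7 CPM with empty vector, 17.4 and 16.1 CPM with wild-type ezrin, 40.8 and 38.3 CPM with T567A, and 17.2 and 16.1 CPM with T567D. T567A stood above the other derived lines, with 1.29 ± 0.094 against wild type (adjusted p = 6.8e-10), whereas wild type and T567D overlapped (-0.00 ± 0.10, adjusted p = 1.0). Gng11, a G protein gamma subunit, was at 0.113 and 0.114 CPM in parental and 7.20 to 10.6 CPM in derived libraries. Rab27b, a GTPase of secretory vesicles, was the other member of the group beside Mctp1.

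Nuclear regulators and other genes made up 7 members, 6 of which differed among the derived lines (54.2% of all tested genes did). Peg12, an imprinted gene expressed from the paternal allele (chromosome 7, 62461871 to 62464510, minus strand), was at 0.282 and 0.797 CPM in K7M2, 25.7 and 24.6 CPM with empty vector, 14.2 and 16.0 CPM with wild-type ezrin, 9.67 and 9.93 CPM with T567A, and 19.0 and 19.1 CPM with T567D. Empty vector was the highest line and T567A the lowest, without overlap. Wild type minus empty vector was -0.76 ± 0.11 (adjusted p = 5.5e-05) and T567A minus wild type -0.57 ± 0.13 (adjusted p = 0.0010). Epdr1, an ependymin-related secreted protein, was likewise highest in empty vector, at 59.1 and 57.2 CPM against 43.0 and 47.3 CPM in wild type (-0.39 ± 0.075, adjusted p = 0.0011). Peg12, Epdr1 and Papss2 were the 3 members called lower in wild type than in empty vector.

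Ifi44l, an interferon-induced gene (chromosome 3, 151758737 to 151762892, minus strand), was at 0.903 and 0.911 CPM in K7M2, 6.23 and 6.97 CPM with empty vector, 6.94 and 6.29 CPM with wild-type ezrin, 21.9 and 20.1 CPM with T567A, and 10.4 and 10.7 CPM with T567D. T567A was the highest and T567D the next, while wild type and empty vector overlapped. T567A exceeded wild type by 1.71 ± 0.12 (adjusted p = 2.6e-10), the highest value of any member in that comparison. T567D exceeded wild type by 0.68 ± 0.13 (adjusted p = 0.0065), lost without wild-type replicate 3 (adjusted p = 0.15) or T567D replicate 3 (0.050). It was the 1 member called higher in T567D than in wild type. Tdrd9, a helicase of the piRNA pathway in germ cells, was at 2.31 and 2.62 CPM in parental and 14.1 to 22.4 CPM in derived libraries. T567A exceeded T567D in Tdrd9 by 0.51 ± 0.11 (adjusted p = 0.00090). Of 29 germline genes listed, Tdrd9 was the only 1 at 5 CPM or more in any line.

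**Figure D4:**
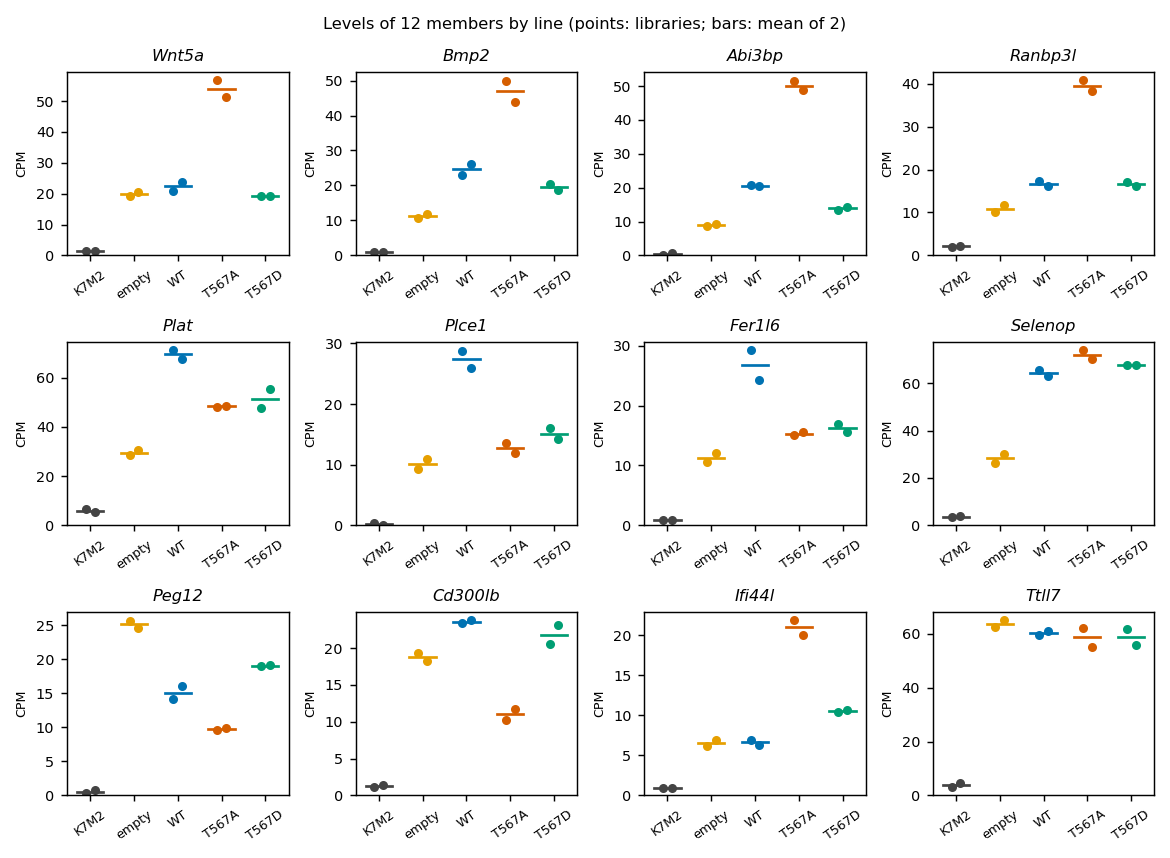
CPM of 12 members in each library (points) and the mean of the 2 libraries of each line (bars), on linear axes from 0. Wnt5a, Bmp2, Abi3bp, Ranbp3l and Ifi44l are highest in T567A, Plat, Plce1 and Fer1l6 in wild type, Peg12 in empty vector, and Ttll7 lies at 55.3 to 65.1 CPM in all derived libraries.

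The members lay on 19 chromosomes. The X chromosome held 269 of the genes at 5 CPM in each derived line with a position, 2.83% of them, and 0 members. Chromosome 18 held 253 such genes, 2.66%, and 5 members, 9.26%, among them Pcdhgb6 and Pcdhgb7. Chromosomes 1, 3 and 15 held 6 members each, 11.1%, and 5.52%, 5.03% and 4.14% of such genes. No test was made of these shares. Only Pcdhgb6 with Pcdhgb7 and Tdrd9 with Tmem179 started within 1 Mb of another member. Other genes within 1 Mb of a member, 524 at 1 CPM or more in any line, had a median log2 ratio to K7M2 of 0.24, averaged over the derived lines, and 10.9% of them were at least 2-fold higher. Over all 11819 such genes the median was 0.04 and the share 5.51%.

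For Spon2, which encodes the matrix protein mindin (chromosome 5, 33198184 to 33218455, minus strand), the surrounding genes were also higher. Spon2 was at 1.30 and 1.20 CPM in K7M2, 8.09 and 6.09 CPM with empty vector, 9.38 and 7.69 CPM with wild-type ezrin, 7.77 and 6.09 CPM with T567A, and 10.5 and 12.6 CPM with T567D, and of the 20 other genes within 1 Mb 14 were at least 2-fold above K7M2. The median log2 ratio of these neighbours was 1.22 for empty vector, 1.14 for wild type, 0.92 for T567A and 1.15 for T567D. Along chromosome 5, the 203 genes other than members that start in the first 46 Mb had a median of 1.00, 194 of them above 0, and 51.2% were at least 2-fold higher. The 565 genes beyond had a median of 0.02, with 3.19% at least 2-fold higher. The boundary was set after these values were seen, and no test was made. The members Spon2 and Abcb1a, a drug efflux pump gene (chromosome 5, 8660077 to 8748575, plus strand), lie in this stretch, and Pcdh7 lies beyond it. The part of the stretch in the values of Spon2 and Abcb1a was not tested.

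Set against the median of the genes within 5 Mb, Spon2 exceeded its surroundings by 1.31 on the log2 scale, the lowest of any member. Of the 54 members 49 exceeded theirs by 4-fold or more. The 4-fold cut against K7M2 largely sets this number, since the members' local medians were themselves low (median 0.18). That local median was 0.5 or more for 7 members (13.0%), against 3.34% of 11797 genes. Pcdhgb7 was higher by a mean log2 ratio of 5.11, with a median of 0.26 among the 41 genes within 1 Mb.

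**Figure D5:**
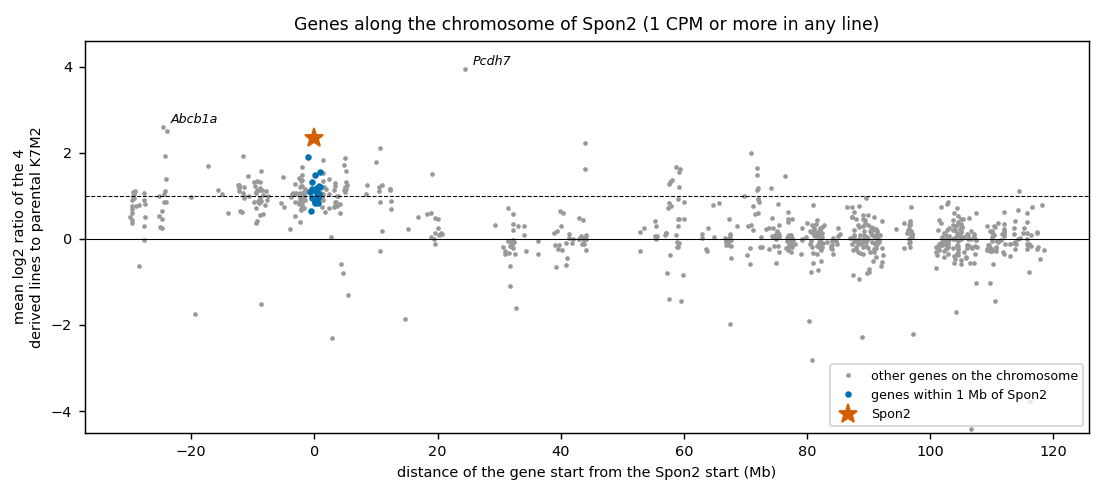
Mean log2 ratio of the 4 derived lines to K7M2 for each gene at 1 CPM or more on the chromosome of Spon2, against distance from the Spon2 start in Mb, with genes within 1 Mb in blue and a dashed line at 2-fold. Genes up to about 13 Mb beyond Spon2 and all the way to the left end lie mostly near 1, and genes further right near 0.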

How the data were processed

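Poly-A RNA libraries, strand-marked with dUTP per the labels' protocols, were sequenced on a DNBSEQ platform. The authors deposited raw counts per gene name and RPKM values for each of 10 libraries. Per the submitters' processing notes the build was GRCm38. The sources used here name neither aligner, counter nor annotation, nor say if counting was stranded, so overlapping, antisense and near-identical genes have uncertain counts.

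Groups came from the labels. The members and gene lists were chosen with earlier results of these data known, and the role groups and promoter strings with the members' values known. Counts were tested with edgeR 4.0.16 (R 4.3.3): genes kept by filterByExpr (minimum count 10, minimum total 15), TMM scaling, 1 robust quasi-likelihood fit of 10 libraries with 5 line means and 5 residual degrees of freedom, two-sided, Benjamini-Hochberg adjusted over 12595 genes, and checked on simulated data. Named were the 12 members highest in RPKM and the 12 highest in lowest ratio, per comparison the 4 called members with the largest change in each direction without overlap, list members, those within 1 Mb of another member, and the 3 genes on each side of the fold cut. Others were named after their values were seen. Alternatives were other scalings and filters, DESeq2 1.42.0, limma 3.58.1 on log2(RPKM + 1) and log2(RPKM + 0.1), a replicate block, only the lines compared, a threshold of 0.01, and leaving out each library. Positions come from GENCODE M21 and promoters from RefSeq (GRCm38.p6). Library pairs of a line differed by more than sampling noise (chi-square per degree of freedom 2.44 to 8.45).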

Additional observations from a re-analysis of the deposited data

How the results depend on the processing

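The number of members depended on the cuts. It was 54 as described, 9 with RPKM in place of CPM, 22 with an 8-fold cut, 30 with a 10 CPM cut and 26 with 2 CPM added to both means, each smaller by the construction of the cut or scale. Without 1 library it lay between 50 and 55. Of 83 calls of a member in a pairwise comparison, repeated under 20 other settings (1660 repeats), 1485 passed again, 175 were lost and 0 changed direction, and 48 calls passed under every setting. The number of members called in wild type against empty vector fell from 21 to 12 by limma on log2(RPKM + 0.1), and that in T567D against wild type from 7 to 1. The cause was not tested. Without 1 library the joint test called 32 to 40 members, wild type against empty vector 14 to 23, T567A against wild type 21 to 31, T567D against wild type 3 to 7 and T567A against T567D 21 to 26. For T567D against wild type the number was 4 without wild-type replicate 1, 3 without wild-type replicate 3 and 4 without T567D replicate 1, with fewer samples.

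With the replicate number as a block, 33 members were called in the joint test, 15 in wild type against empty vector, 23 in T567A against wild type, 7 in T567D against wild type and 19 in T567A against T567D. Among the pairs of lines compared, only wild type and T567D share 2 replicate numbers. Their same-numbered libraries deviated from the line means with a correlation of -0.0995 across genes. With 2 libraries per line the deviations mirror each other, so this value cannot show whether same-numbered libraries share a culture or batch. The floor of 3 counts, 0.165 to 0.204 CPM, limits the parental level of members such as Bambi, Pcdhgb7 and Cftr, and with 2 libraries per line only differences well above library spread could pass.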

Other observations

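The members had a longer median span on the genome, 57.8 kb, against 24.8 kb over the 9506 genes with a position at 5 CPM in each derived line. Of the members 31.5% spanned over 100 kb, where 12.4% of all these genes did. The 49 genes at least 4-fold lower in every derived line had a median span of 26.1 kb, with 14.3% over 100 kb. No test was made of these spans.

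Genes on the X chromosome had a median log2 ratio to K7M2 of -0.61 averaged over the derived lines. That chromosome held 0 members and 2.83% of the genes with a position at 5 CPM in each derived line. By CpG content, 44.4% of the 36 members' promoter windows had an observed to expected ratio over 0.6, against 36.4% of all 27025 windows. Those windows were not limited to genes expressed in these lines, whereas the members were chosen by level, so the shares are not of like genes.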
